A study of Bos taurus and Cervus elaphus with 24 samples.

Results

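Genes of mitosis and of the mitotic spindle were measured in the blood of cattle and deer in 2 states, the dry period before birth, without milk, and the peak of lactation. The list named 47 genes by their function in cell division, and a gene was measured through the non-control probe of its name with the brightest mean Cy5 signal. It was drawn up with earlier results of these data known, so its shares set beside those of all probes are descriptions. Under their own names, 43 of the 47 genes had probes, 103 probes in all, among 43653 probes and 25232 gene names on the array. KNSTRN was found under its older array name C10H15orf23 and is given beside the others but not counted among the 43. No probe carried the names CENPA, TOP2A or MKI67, so these 3 genes were not analysed here.

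The samples, which the labels call peripheral blood nuclear cells, gave RNA for 24 bovine oligonucleotide arrays. There were 6 groups of 4 arrays, dry and lactating animals of 2 cattle breeds, Holstein-Friesian (HF) and Polish Red (PR), and of deer (Cervus elaphus), and the same 4 animals of a breed or species gave blood in both states. The labels name no treatment, and ages are not given in the sources used here. On every array the animal's RNA was labelled with Cy5 and a reference pooled from 20 cattle outside these groups with Cy3. A level is therefore a log2 ratio of Cy5 to Cy3, with 0 for a gene as bright in the animal as in the cattle pool, and a difference is one group's mean level minus another's. The adjusted p-values come from limma with Benjamini-Hochberg adjustment over all probes tested, and a probe was called below 0.05. Levels of different genes were not compared with each other, since probes differ in brightness.

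Entry into mitosis depends on cyclin A and B bound to the kinase CDK1, helped by Polo-like and Aurora kinases. Microtubules then build the spindle with motor proteins and binding proteins such as TPX2, and the spindle checkpoint holds back anaphase until every chromosome is attached. CDC20 and UBE2C work with the anaphase promoting complex to mark cyclin B and securin (PTTG1) for destruction, after which the cell divides at the midzone that PRC1 bundles. Most of these genes are transcribed in G2 and mitosis, so their transcripts mark dividing cells. Most circulating white blood cells do not divide. In bulk blood, fewer cells of a type and less RNA per cell cannot be told apart.

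The probes on which the results turn are 60 bases long and come from the probe column of the array files, which place them on the UMD 3.1 cattle assembly. The first 30 bases of each are shown 5′ to 3′, in lower case with nothing marked, because these are the sequences to which the deer and cattle transcripts had to anneal. The files give positions in ascending order for all of them except SPAG5. Whether a probe lies in coding sequence or in an untranslated region is not given in the sources used here.
TPX2, chr13:61885698-61885757: agcctctgtatcagcgcagtgtaatttcta
CDCA3, chr5:103963190-103963249: cctaaactgccaaccctgggactcagagct
PLK1, chr25:21597552-21597611: acgtggctgttgaattcgggactgtgcttg
KNSTRN, chr10:36127683-36127742: ggtgaaggtatagatagcaataacaggtat
SPAG5, chr19:20592279-20592338: taccccaacatcaggaccaattggcttaga
GTSE1, chr5:117738719-117738778: ctccggatgagtctggattttttgcatgta
CENPE, chr6:23041650-23041709: gaatgggatgcattcccataatctagaatg
PRC1, chr21:22123770-22123829: tggttcttggaagcttacaggtgtggattt

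The brightest probes of the 43 genes lie on 20 chromosomes, with 5 of the genes on chromosome 10 and 4 on chromosome 5. Few are close neighbours. BUB1B and KNSTRN lie 169 kb apart on chromosome 10, and CDCA3 and NCAPD2 lie 281 kb apart on chromosome 5. The 43 probes had a median GC content of 41.7%, against 45% for all probes, and a median of the mean log2 Cy5 signal of 7.87, against 7.43. Cy5 was well above background on all 24 arrays for every gene but ASPM (23 arrays), CDCA8 (21 arrays) and RACGAP1 (15 arrays). RACGAP1 was too dim to be tested between the states in PR or between the breeds in the dry period.

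On 23 of the arrays the median Cy5 intensity was 109 to 255, and on the array of PR animal 1 in the dry period it was 2038. On 5 arrays, those of HF animals 2 and 3 and that same PR array, the spike-in correlation in the file headers was 0.17 to 0.40, against 0.90 or more on the others. The log2 ratios of all probes had an SD of 0.52 and 0.66 on deer lactation arrays 2 and 4, against 0.80 to 0.85 on the other deer arrays.

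In deer, no mitosis gene passed the test between the states, but most had higher levels at peak lactation. Of the 43 genes 40 were higher, with a median difference of 0.28 (range -0.20 to 0.86), while the median over all 33389 probes tested was 0.01 and 52.4% of them were higher. The adjusted p-values began at 0.0659 for TPX2, and 0.00599% of all probes were called. At an unadjusted p under 0.05 there were 23 of the 43 genes, all higher, against 5.65% of all probes that were higher at that level. Levels at peak lactation did not overlap those of the dry period for 17 genes, all higher, against 2.31% of all probes. In 27 genes all 4 deer were higher at peak lactation than the same animal had been in the dry period, against 9.66% of all probes, and in 12 more 3 of the 4 deer were. Since the list was chosen with earlier results of these data known, these shares are no test of it. The 3 genes that were lower were TTK (-0.20), the checkpoint kinase also called MPS1, which was lower in each of the 4 deer, CEP55 (-0.12) and AURKB (-0.04). On the 1 slide that held deer arrays of both states, 36 of the 43 genes were higher at peak lactation, with a median of 0.25. That slide held dry animal 3 and lactating animals 1 and 4, so no animal was set against itself there. With array weights estimated from the data 25 of the 43 genes were called, as were 8780 of all 33389 probes. Without the narrow arrays 2 and 4 none was called and 40 were higher with a median of 0.32.

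**Figure D1:**
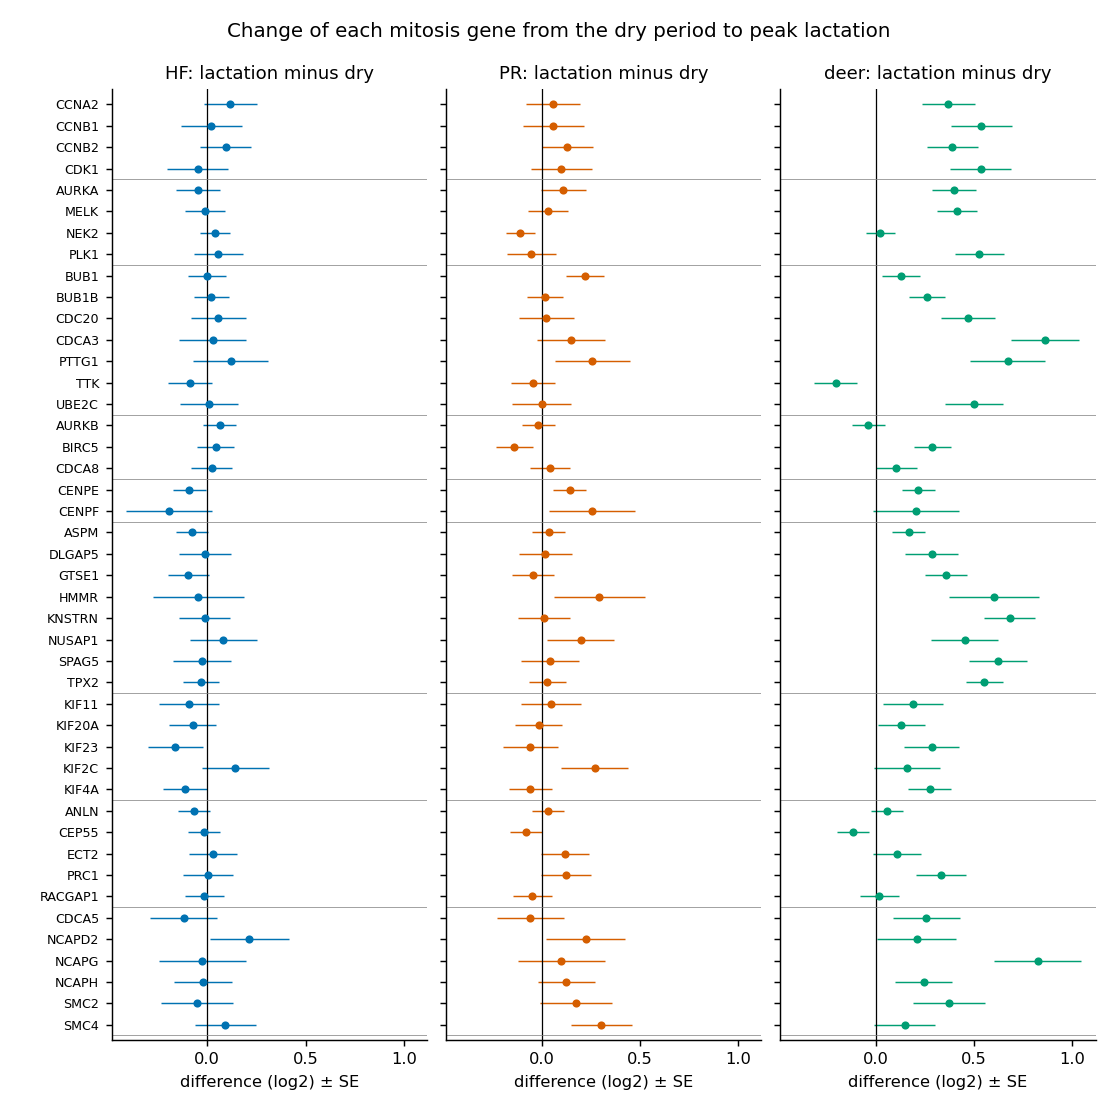
Difference in log2 Cy5/Cy3 between peak lactation and the dry period for each mitosis gene, with its SE from the fit across all arrays, in HF, PR and deer; horizontal lines separate the roles. In deer 40 of the 43 genes (KNSTRN is drawn as well) lie above 0 with a median of 0.28, while in HF and PR the medians are -0.01 and 0.04.

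TPX2 brings the kinase AURKA to spindle microtubules and activates it. Its levels in the 4 deer were 0.11, 0.18, 0.13 and -0.06 in the dry period and 0.55, 0.72, 0.60 and 0.71 at peak lactation, in the order of animals 1 to 4. All 4 lactation levels lay above all 4 dry levels. The means were 0.09 ± 0.11 and 0.64 ± 0.08 (SD, n = 4 each), a difference of 0.55 (SE 0.09, 1.47-fold, limma adjusted p = 0.0659). With the animal as a random block TPX2 was called (adjusted p = 0.0407), the only one of the 43 genes to be so, and with the animal as a fixed block its adjusted p was 0.217. Without deer lactation array 3 it was called as well (adjusted p = 0.0213).

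CDCA3 serves the destruction of the kinase WEE1 at mitotic entry. Its levels were -0.14, -0.06, 0.12 and -0.35 in the dry period and 0.68, 0.97, 0.41 and 0.95 at peak lactation. The groups did not overlap, and animals 2 and 4 moved furthest. The difference was 0.86 (SE 0.17, 1.82-fold, limma adjusted p = 0.204). It was 0.65 without lactation arrays 2 and 4, the arrays of narrow ratios, and it was called without lactation array 3 (adjusted p = 0.0254).

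PLK1, the Polo-like kinase of mitotic entry and spindle assembly, was far below the cattle reference in deer. Its levels were -1.65, -1.42, -1.27 and -1.60 in the dry period and -1.31, -0.66, -1.05 and -0.82 at peak lactation. Each deer was nearer the reference at peak lactation, with overlap between animal 3 when dry and animal 1 in lactation. The difference was 0.53 (SE 0.13, limma adjusted p = 0.368). It was 0.31 without the narrow arrays 2 and 4, and -0.04 after scaling all arrays to 1 spread, so its direction depends on the scaling. KNSTRN, a kinetochore and spindle protein, had a like pattern, from -1.32, -1.25, -0.99 and -1.44 to -0.66, -0.32, -0.90 and -0.40. Its groups did not overlap, and the difference was 0.68 (SE 0.13, limma adjusted p = 0.200), with values of 0.47 without arrays 2 and 4 and 0.23 after scaling. In the Cy5 channel alone the difference of KNSTRN was 0.38 (SE 0.55), and in the Cy3 channel alone, which holds the cattle pool and no deer RNA, -0.30 (SE 0.49). In Cy3 alone PLK1 stood at -0.09 and CDCA3 at -0.01. Channel values were taken after normalization on both channels together, so those of Cy3 also depend on the Cy5 signal. Both PLK1 and KNSTRN sit far from 0, where a narrower spread of ratios moves a level most; the part of the spread in their differences was not tested beyond these values.

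SPAG5 (astrin), which steadies the attachment of microtubules to kinetochores, is added here after its values were seen. Its levels in deer were -0.92, -0.66, -0.37 and -0.53 in the dry period and -0.07, -0.08, 0.05 and 0.12 at peak lactation, again without overlap. The difference was 0.62 (SE 0.15, limma adjusted p = 0.368).

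**Figure D2:**
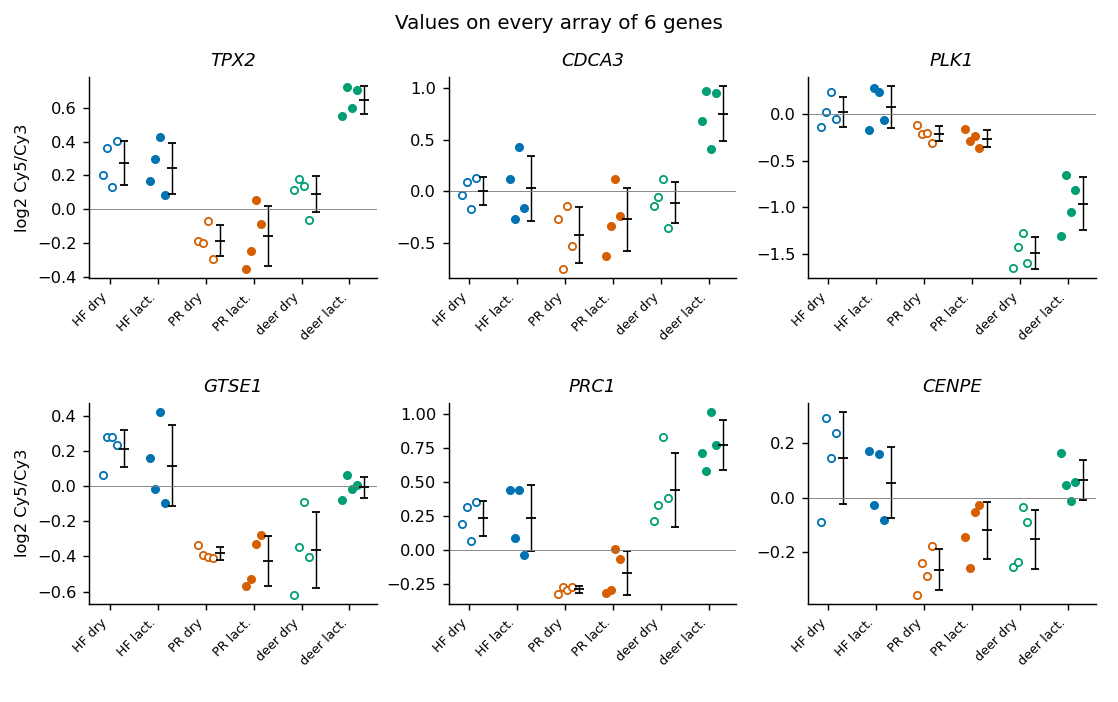
Log2 Cy5/Cy3 on each of the 24 arrays for 6 genes; open points are the dry period, filled points peak lactation, and bars give the mean and SD of 4 arrays. TPX2 in lactating deer lies at 0.55 to 0.72, above all other groups, while GTSE1, PRC1 and CENPE in dry PR lie below 0 and below all dry HF points.

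By role, the deer differences were largest in the genes of mitotic entry, spindle building and anaphase. Of the cyclins and their kinase 4 of 4 were higher, with a median of 0.46. They were CCNB1 at 0.54, CDK1 at 0.53, CCNB2 at 0.39 and CCNA2 at 0.37. The 7 spindle assembly genes were all higher, with a median of 0.45, among them HMMR, a microtubule-binding protein also known as RHAMM, at 0.60. HMMR was at 0.39 without the narrow arrays 2 and 4, and like PLK1 it lay far below the reference, at -2.05 to -1.47 in dry deer. Of the 7 checkpoint and anaphase genes 6 were higher, with a median of 0.47. These included PTTG1, the securin that restrains separase, at 0.67. UBE2C, the conjugating enzyme of the anaphase promoting complex, stood at 0.50 and CDC20, its activator, at 0.47 (0.29 without arrays 2 and 4). The 4 mitotic kinases were all higher with a median of 0.41, although NEK2, a kinase of centrosome separation, was at 0.02.

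Differences were smaller in the genes of chromosome structure, motors and cytokinesis. The 6 chromosome structure genes had a median of 0.25, led by NCAPG, a condensin I subunit, at 0.82. The 5 mitotic kinesins were all higher with a median of 0.19. The centromere proteins CENPE (0.22) and CENPF (0.20) were both higher. The 3 passenger complex genes had a median of 0.10 and the 5 cytokinesis genes 0.06. Here PRC1, the bundler of midzone microtubules, stood at 0.33, ANLN at 0.06, RACGAP1 at 0.02 and CEP55 at -0.12. Without arrays 2 and 4 the median was 0.15 for chromosome structure and 0.18 for cytokinesis, where ANLN stood at 0.18 and RACGAP1 at 0.11. In the same comparison CDCA5, a chromosome structure gene, went from 0.26 to -0.05, AURKB from -0.04 to 0.02 and TTK from -0.20 to -0.07. Differences between roles were not tested.

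In HF, the mitosis genes showed no shared difference between the states. The median was -0.01, 19 of 43 genes were higher against 47.2% of all probes, and none was called (0.00906% of all probes were) or had an unadjusted p under 0.05 in limma, as 8.1% of all probes had. The count of 19 was 7 without HF lactation array 3, 27 without lactation array 4 and 11 without the arrays of animals 2 and 3. The 3 genes of smallest p were KIF23, CENPE and NCAPD2. KIF23, a motor of the central spindle, stood at 0.10, 0.65, -0.11 and 0.19 in the dry period and at 0.30, 0.16, -0.25 and -0.03 at peak lactation. Its difference was -0.16 (SE 0.14, limma adjusted p = 0.883), and the groups overlapped. It was -0.01 without the arrays of animals 2 and 3, and also without HF dry array 2 alone, and -0.06 without lactation array 3. For NCAPD2, another condensin I subunit, levels of -0.26, -0.33, -0.09 and 0.18 stood against -0.31, 0.42, 0.04 and 0.21, a difference of 0.21 (SE 0.20, adjusted p = 0.907). It was -0.01 without animals 2 and 3 and 0.10 without HF lactation array 2. CENPE differed by -0.09 (SE 0.08, adjusted p = 0.902).

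In PR, 31 of 43 genes were higher at peak lactation, but so were 56.5% of all probes, and the median was 0.04 against 0.02 for all probes. Both rest on few arrays, with 19 genes higher and a median of -0.01 without PR lactation array 3, and 19 to 33 genes and medians of -0.01 to 0.09 over the 8 omissions of 1 array. No gene was called, and 0% of all probes were. BUB1, a checkpoint kinase at kinetochores, alone had an unadjusted limma p under 0.05, against 5.99% of all probes. Its levels were -0.10, -0.21, -0.01 and -0.16 in the dry period and 0.29, 0.06, 0.11 and -0.04 at peak lactation. Each of the 4 animals was higher, with overlap only between animal 3 when dry and animal 4 in lactation. The difference was 0.22 (SE 0.10, limma adjusted p = 0.798). SMC4, a core subunit of condensin, went from -0.31, -0.17, 0.27 and -0.22 to -0.16, 0.23, 0.62 and 0.10. It too was higher in 4 of 4 animals, with overlapping groups and a difference of 0.30 (SE 0.16, adjusted p = 0.798).

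The state differences were also set against each other. The deer difference exceeded the mean of both cattle breeds by a median of 0.28, with 37 of 43 genes above 0 against 51.5% of all probes. None was called (0% of all probes were), the smallest adjusted p in limma being 0.379 for TPX2, and 16 genes had an unadjusted p under 0.05, all with the larger difference in deer, against 4.78% of all probes. The HF difference minus the PR difference had a median of -0.06, with 10 of 43 genes above 0 against 43.9% of all probes. That count was 20 without PR lactation array 3, 18 without PR dry array 2 and 17 without HF lactation array 4, and 7 to 20 over all omissions of 1 array. By limma no gene was called (0% of all probes were) and none had an unadjusted p under 0.05 (3.24% of all probes).

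The 4 deer shared a direction, and the cattle did not. In each animal the 43 lactation levels were set against the same animal's dry levels. The median difference was 0.34, 0.23, 0.22 and 0.39 in deer 1 to 4, with 33 to 41 genes higher. In HF it was 0.05, -0.24, 0.29 and -0.18, with 40 genes higher in animal 3 and 5 in animal 2. In PR it was -0.15, -0.00, 0.13 and 0.13. HF animals 2 and 3, whose arrays have the poor spike-in correlations, lay at opposite ends. Each HF animal had both of its arrays on 1 slide, so animal and slide cannot be told apart there. Each deer had its dry and lactation arrays on different slides, and the slide of dry deer 1, 2 and 4 held no lactation array. State and slide therefore cannot be told apart within a deer. Within the 3 slides that held PR arrays of both states, the median differences were -0.15, -0.08 and 0.22. The first slide held both arrays of animal 1, with its bright dry array. The second set lactating animal 2 against dry animal 3, and the third lactating animals 3 and 4 against dry animal 4.

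**Figure D3:**
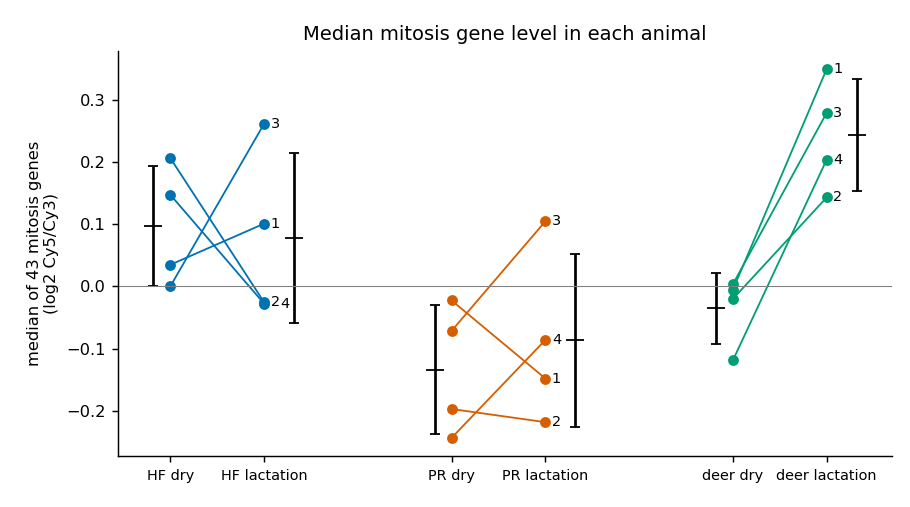
Median log2 Cy5/Cy3 of the 43 mitosis genes on each array, with lines joining the arrays of an animal, numbered 1 to 4, and bars for the mean and SD of 4 arrays. All 4 deer lines rise, from -0.12 to 0.00 in the dry period to 0.14 to 0.35 at peak lactation, while HF and PR lines cross.

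Array medians of the 43 genes give the level of the list in each group. They averaged 0.10 ± 0.10 in dry HF and 0.08 ± 0.14 in lactating HF (SD, n = 4 each), and -0.13 ± 0.10 in dry PR and -0.09 ± 0.14 in lactating PR. Deer stood at -0.04 ± 0.06 in the dry period and at 0.24 ± 0.09 at peak lactation. Lactating deer had the highest group mean for 24 of the 43 genes, and the lowest for none. Dry PR had the lowest mean for 16 genes and dry deer for 15. These ranks set deer beside cattle on cattle probes, so expression and probe match cannot be told apart in them. No slide held arrays of deer and of cattle, and the same ranks over all probes are not given here.

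Single arrays stood high across many of the genes. Lactation array 3 in HF was the highest of the 8 HF arrays for 23 of the 43 genes, and lactation array 3 in PR was the highest of the 8 PR arrays for 23. In deer no array held so many, the most being 15 for lactation array 1 and 13 for lactation array 2. The genes also moved together within groups. After group means were removed, the correlation of a gene over the 24 arrays with the median of the other 42 had a median of 0.49 and was above 0.5 for 21 genes. It was 0.93 for CCNA2, 0.86 for DLGAP5 and 0.85 for CDK1, and below 0 for KIF2C, AURKB, CDCA5 and NCAPD2. These points share arrays and their brightness, so the values are a description.

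**Figure D4:**
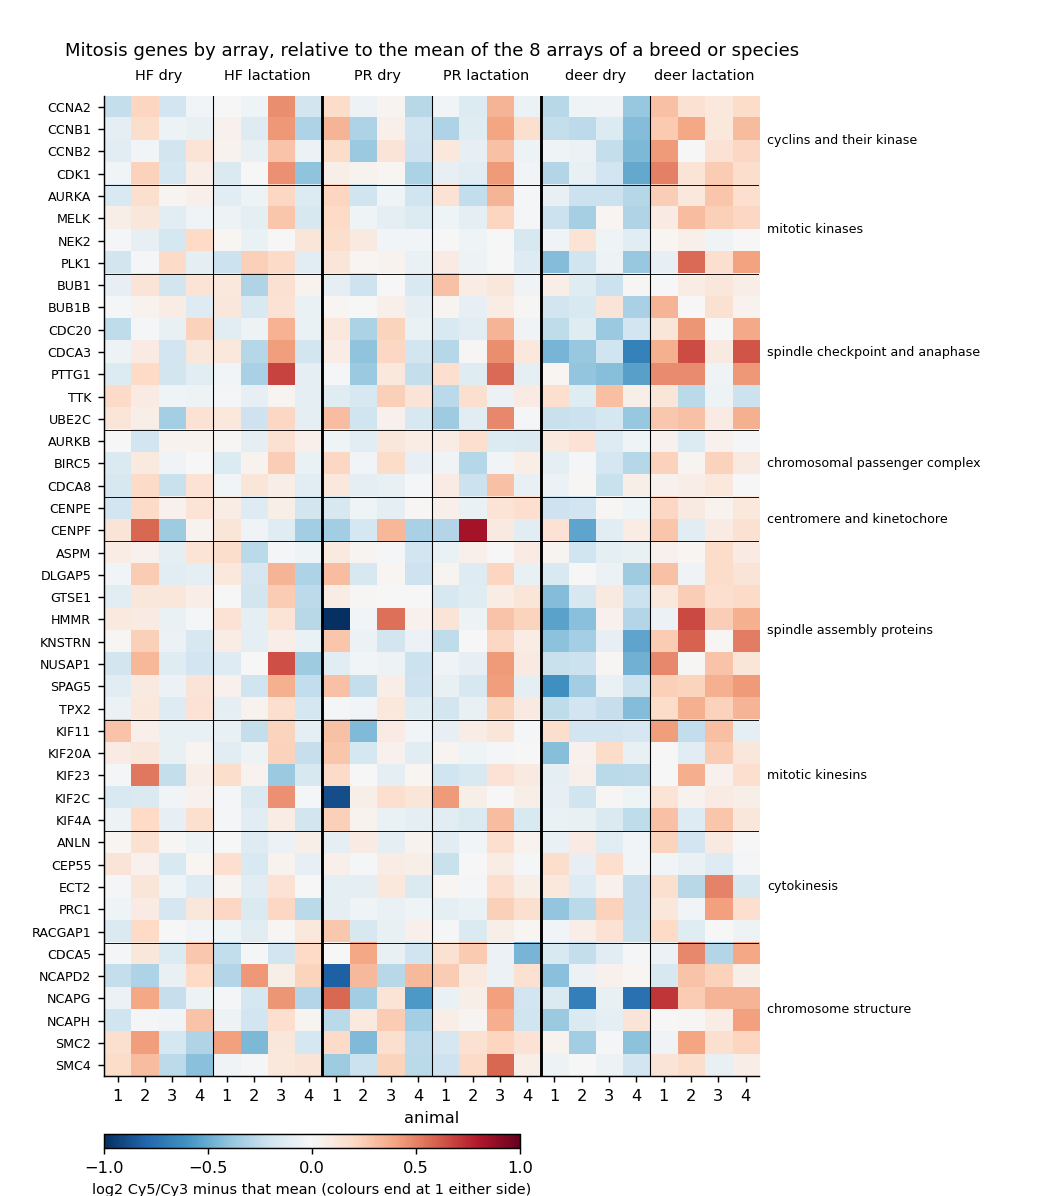
Log2 Cy5/Cy3 of each mitosis gene (rows, by role) on each array (columns, animals 1 to 4 of each group), minus the mean of the 8 arrays of that breed or species; red is higher and blue lower, and colours end at 1 on either side. Deer columns turn from mostly blue in the dry period to mostly red at peak lactation, and the columns of HF and PR lactation array 3 stand out in red.

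Between the breeds, 4 mitosis genes were higher in HF than in PR in the dry period. GTSE1, TPX2, CENPE and PRC1 were called in limma, 4 of the 42 genes tested, and 3.15% of all probes were called in this contrast, 899 higher and 137 lower in HF. Over the list 38 of 43 genes were higher in HF, with a median of 0.26 against 0.01 for all probes, of which 51.9% were higher. At an unadjusted p under 0.05 there were 20 genes, 19 higher and AURKB lower, against 22.4% of all probes, 15.3% higher and 7.08% lower. Levels did not overlap for 9 genes that were higher in HF and 1 that was lower, against 6.05% and 2.94% of all probes.

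GTSE1, a microtubule-binding protein of G2 and mitosis, had levels of 0.06, 0.28, 0.28 and 0.23 in dry HF and of -0.33, -0.39, -0.40 and -0.41 in dry PR. The breeds did not overlap, and the PR animals lay close together. GTSE1 was 0.60 higher in HF (SE 0.11, 1.51-fold, limma adjusted p = 0.0154). At peak lactation it stood at 0.16, -0.02, 0.42 and -0.10 in HF and at -0.57, -0.53, -0.33 and -0.28 in PR. The groups again did not overlap, and the difference was 0.54 (SE 0.11, adjusted p = 0.0515).

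TPX2 stood at 0.20, 0.36, 0.13 and 0.40 in dry HF and at -0.19, -0.20, -0.07 and -0.30 in dry PR. All HF levels were above 0 and all PR levels below it. The difference was 0.46 (SE 0.09, 1.38-fold, limma adjusted p = 0.0218). At peak lactation its levels were 0.16, 0.29, 0.43 and 0.08 in HF and -0.36, -0.25, 0.05 and -0.09 in PR, without overlap, and the difference was 0.40 (SE 0.09, adjusted p = 0.0794).

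CENPE is the kinesin that carries chromosomes to the spindle's equator. It had levels of -0.09, 0.29, 0.14 and 0.24 in dry HF and of -0.35, -0.24, -0.28 and -0.18 in dry PR, with HF animal 1 lowest in its group but above every PR animal. The difference was 0.41 (SE 0.08, 1.33-fold, limma adjusted p = 0.0244). At peak lactation it stood at 0.17, -0.03, 0.16 and -0.08 in HF and at -0.14, -0.26, -0.05 and -0.03 in PR, where the groups overlapped.

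PRC1 had levels of 0.20, 0.32, 0.07 and 0.35 in dry HF and of -0.33, -0.27, -0.30 and -0.27 in dry PR. The breeds stood clear of each other, and PRC1 was 0.52 higher in HF (SE 0.13, 1.44-fold, limma adjusted p = 0.0344). At peak lactation its levels were 0.45, 0.09, 0.44 and -0.03 in HF and -0.32, -0.29, 0.01 and -0.07 in PR. Those groups overlapped through HF animal 4, and the difference was 0.40 (SE 0.13, adjusted p = 0.149).

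The calls between the breeds rest on few arrays. When 1 of the 8 dry arrays was left out at a time, GTSE1 and TPX2 were called in 6 of 8 cases, CENPE in 4 and PRC1 in 1, that without PR dry array 2. None of the 4 genes was called without HF dry array 2 or without PR dry array 4, nor without the arrays of HF animals 2 and 3. CENPE was also not called without HF dry array 3 or PR dry array 3. Without HF dry array 2, PR dry array 4 or HF animals 2 and 3 the 4 differences stayed between 0.34 and 0.59. Without the bright PR dry array 1, GTSE1, TPX2 and CENPE were called and PRC1 was not (adjusted p = 0.0722). In the Cy3 channel alone, which holds the same reference pool everywhere, the 4 genes were 0.24 to 0.44 higher on the dry HF arrays than on the dry PR arrays (adjusted p = 0.293 each). In the Cy5 channel alone they were 0.65 to 1.04 higher. Here too the channel values come after normalization on both channels together, so those of Cy3 also depend on the Cy5 signal. On 1 slide that held a dry array of each breed, HF animal 4 and PR animal 2, HF was higher for 37 of 43 genes, by 0.62 for GTSE1, 0.60 for TPX2, 0.47 for CENPE and 0.62 for PRC1. No other slide held arrays of both breeds, so breed and slide cannot be told apart on the rest. With the slide as a fixed block none of the 4 genes was called.

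At peak lactation 32 of the 43 genes were higher in HF than in PR, with a median of 0.19, against 51.5% of all probes. No slide held lactation arrays of both breeds, so breed and slide cannot be told apart in this contrast. None was called, while 0.0121% of all probes were, and 16 genes had an unadjusted limma p under 0.05, all higher in HF, against 7.41% of all probes. Levels did not overlap for 3 genes, all higher in HF, against 6.65% of all probes. In the dry period the median by role was 0.46 for the spindle assembly genes and 0.32 for the cyclins and their kinase. It was 0.26 for the checkpoint and anaphase genes, 0.25 for the mitotic kinases and 0.24 for chromosome structure. The kinesins stood at 0.15, cytokinesis at 0.04 and the passenger complex at 0.03.

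Deer and cattle levels were apart in both directions. Against the mean of both breeds, 25 of 43 genes were called in the dry period, 14 higher and 11 lower in deer, and 57.4% of all probes were called. At peak lactation 26 were called, 21 higher and 5 lower, against 49.3% of all probes. In the dry period HMMR (-1.69), PLK1 (-1.39), KNSTRN (-1.35) and CDCA5 (-1.05), the cohesin regulator sororin, were lowest in deer. At peak lactation NCAPG (1.35) and CCNB2 (0.89) were highest. The probes were designed for cattle, and a deer transcript of other sequence binds them less, so expression and probe match cannot be told apart between species. A state contrast within deer uses the same probe on both sides.

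Genes with several probes show how far a value depends on the probe. The 60 other probes of the 43 genes were dimmer, with a median of the mean log2 Cy5 signal of 6.66. Their median deer difference was 0.11 with 50 of 60 higher, against 0.28 for the brightest probes. For HF minus PR in the dry period it was 0.04 with 40 of 60 higher, against 0.26. TPX2 shows this within 1 gene, and its other probes are given for that reason.
TPX2, chr13:61844816-61851567, whose span is longer than its 60 bases: catagattcctggtttgatgagaaggctaa
TPX2, chr13:61862815-61862874: atttggaacagaaggaaaagcagcatgtaa
TPX2, chr13:61882540-61882599: cgaagaactaaaacagcagaaagaagcagc

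In the order of the brightest probe and then these 3, the mean log2 Cy5 signal of the TPX2 probes was 9.81, 8.56, 7.73 and 6.87. The deer differences between the states were 0.55, 0.49, 0.36 and 0.01, and those of HF minus PR in the dry period 0.46, 0.21, 0.04 and -0.03. Both sets of differences were smaller on the dimmer probes, and on the dimmest probe they were near 0.

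Probes of other genes diverged as well. The second probe of GTSE1 differed by 0.05 between the breeds in the dry period, the other probes of PRC1 by 0.01 and -0.01, and that of CENPE by 0.22. AURKB, the kinase of the passenger complex, was -0.04 in deer by its brightest probe and 0.45 by its second, and between the breeds -0.19 and 0.51. With the mean of all probes of a gene in place of the brightest, 2 genes were called between the breeds in the dry period, and neither TPX2 (0.17) nor PRC1 (0.18) was among them.

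The authors' deposited table of deer probes that they selected between the states holds 24 probes of 22 of these genes, KNSTRN among them. All 24 were higher at peak lactation in the authors' deposited table, by 0.48 to 1.15 on its log2 scale with a median of 0.78. The authors' deposited tables for HF and PR hold none of the genes. These tables come from the same arrays and are no independent evidence.

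Related genes were described through 8 further lists, chosen by function. In deer none of their genes was called. The S phase genes, which copy the DNA, were nearest to the mitosis genes, with 21 of 25 higher and a median of 0.30, led by the helicase subunit MCM4 at 0.69 (SE 0.13, limma adjusted p = 0.200). Kinetochore and checkpoint partners followed with 22 of 29 higher and a median of 0.21, among them SPC24, a subunit of the NDC80 complex, at 0.61 (adjusted p = 0.406). Medians were 0.11 for other kinesins and spindle proteins (18 of 25 higher), 0.11 for the anaphase promoting complex (13 of 15) and 0.11 for CDK inhibitors and pocket proteins (7 of 8). They were 0.10 for DREAM, B-MYB and FOXM1 regulators (9 of 15), 0.09 for cohesin and condensin II (6 of 9) and 0.06 for mitotic entry kinases and phosphatases (8 of 11).

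Between the breeds in the dry period, genes of each of the 8 lists were called, all higher in HF, beside 3.15% of all probes. Of all probes called here, 899 were higher and 137 lower in HF, and leaving out 1 array gave 1 to 4391 calls. Whether the calls in these lists held without single arrays was not followed. The mean of a list per dry PR array ran from -0.65 to 0.07 for cohesin and condensin II. It ran from -0.60 to 0.02 for the anaphase promoting complex and from -0.55 to 0.22 for CDK inhibitors and pocket proteins. For the regulators it was -0.36 to 0.04, for mitotic entry -0.28 to 0.02 and for S phase -0.28 to -0.02. Ranges were narrower for other kinesins (-0.13 to -0.08) and kinetochore partners (-0.05 to 0.01). Among the 29 kinetochore partners 3 were called, ZWINT (0.64), BUB3 (0.87) and CENPW (0.51), and in the anaphase promoting complex 1 of 15, ANAPC1 (0.65). Of 9 cohesin and condensin II genes 2 were called, the cohesin subunits RAD21 (0.88) and SMC3 (0.61). Of 23 other kinesins and spindle genes tested 1 was called, CKS2 (0.76), a CDK-binding protein, and of 9 entry kinases and phosphatases tested 2, the PLK1 activator BORA (0.57) and the centriole kinase PLK4 (0.40). Of 15 regulators 3 were called, E2F5 (0.61), LIN52 (0.56) and RBBP4 (0.41), and of 25 S phase genes 4, RRM1 (0.50), MCM4 (0.56), TYMS (0.77) and PCNA (0.68). Of 8 CDK inhibitors and pocket proteins 1 was called, CDKN1B (0.75), an inhibitor of cyclin-dependent kinases. The smallest limma adjusted p among them was 0.0252 and the largest 0.0488.

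**Figure D5:**
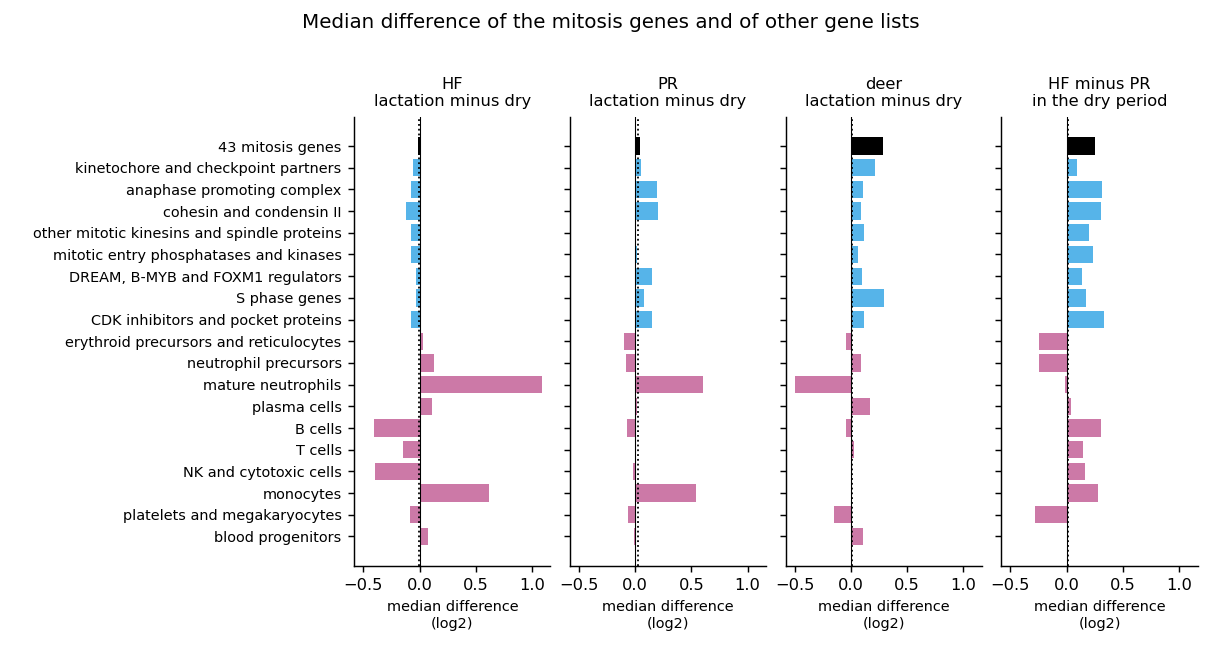
Median difference in log2 Cy5/Cy3 of the 43 mitosis genes (black), 8 lists of other cell cycle genes (blue) and 10 lists of blood cell markers (pink) in 4 contrasts; dotted lines mark the median of all probes. In deer the mitosis genes (0.28) and S phase genes (0.30) lie furthest to the right and mature neutrophil markers (-0.50) furthest to the left.

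Markers of blood cell types moved between the states too, and their part in the mitosis values was not tested. None of the marker genes was below background on every array. In deer 8 of 9 mature neutrophil markers were lower at peak lactation, with a median of -0.50, and their mean per array ran from -0.12 to 0.70 in the dry period and from -1.0 to 0.05 at peak lactation. In HF and PR 9 of 9 were higher, with medians of 1.09 and 0.60. Of the plasma cell markers, genes of antibody-secreting cells, 5 of 7 were higher in deer with a median of 0.17, and their mean per array ran from 0.07 to 0.22 and from 0.10 to 0.72. The medians in deer were 0.03 for T cells (7 of 13 higher), -0.04 for B cells (3 of 8) and 0.00 for NK and cytotoxic cells (5 of 9). They were 0.01 for monocytes (5 of 9) and 0.11 for blood progenitors (4 of 7). Erythroid markers had a median of -0.04 (4 of 13), with HBB, the beta globin, at -3.02, neutrophil precursors 0.09 (6 of 7) and platelets -0.15 (1 of 7). Between the breeds in the dry period 7 of 8 B cell markers were higher in HF, with a median of 0.31. Among them CR2, a complement receptor of B cells, was called (0.73, limma adjusted p = 0.0198). Of 13 T cell markers 12 were higher in HF with a median of 0.15, and CD4 was lower (-0.35, limma adjusted p = 0.117). Mean levels in dry HF and dry PR were -0.13 and 0.16 for neutrophil precursors and -0.18 and 0.09 for erythroid markers. They were -0.01 and 0.16 for platelets and 0.13 and 0.14 for progenitors. HF was the higher in mature neutrophils (-0.72 and -0.83) and monocytes (-0.64 and -0.80). It was also higher in NK and cytotoxic cells (0.23 and 0.03) and plasma cells (-0.05 and -0.19).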

How the data were processed

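RNA from blood was measured on 24 arrays of 2 colours. Spot files give, per the file headers, mean intensity and median local background in both channels, with a log10 ratio of processed Cy5 over processed Cy3 signals. The submitters' processing notes name Agilent Feature Extraction as 10.7.3.1, where the headers have 10.10.1.1. The log2 ratios in the authors' deposited tables had been normalized and cover probes they selected between the states, 576 in deer, 437 in HF and 158 in PR. How the authors normalized them is not given in the sources used here.

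Mean spot intensity went through normexp (offset 50), the log2 ratio was adjusted by loess within each array with the 1417 control spots at weight 0, and spots of a probe were averaged (limma 3.58.1, statmod 1.5.0 and version 1.17.8 of data.table in R 4.3.3; figures with matplotlib 3.10.9 in Python 3.11.15). A probe was tested where Cy5 was well above background on 3 or more of the 4 arrays of a group in the contrast. The limma model had 6 group means over 24 arrays and no animal term, as the submitters' text describes an unpaired comparison, with Benjamini-Hochberg adjustment and a threshold of 0.05. The script was tested on simulated data. For each gene the probe with the highest mean log2 Cy5 signal was used. The number of arrays limits the precision.

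Values on every array are given for genes that were called between states or breeds and, failing that, for the 3 genes of smallest p in a contrast; KNSTRN and SPAG5 were added. In the other lists the genes that were called, or the 1 of smallest p, could be named. The members, the lists and these rules were chosen with earlier results of these data known. Subject numbers in the labels mark the same animal in both states. As a check, an animal's own arrays, after removal of group means, correlated above 0.1 in all 4 HF and all 4 deer but only 2 of the 4 PR animals. Alternatives changed the background correction, the normalization, the channel, the probe of a gene, the dim-probe filter, spot flags, blocks for animal, slide and slide position, array weights, the arrays included and the test. Leaving out deer lactation arrays 2 and 4 was added after seeing the data. Gene names are those of the array files, and the reference's gene names were used for the older name of KNSTRN. Promoter and protein sequences were not used here.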

Additional observations from a re-analysis of the deposited data

Results flagged for a closer look

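The 4 values of each gene in each group, and the array medians of the list, were checked with Dixon's test for 1 array far from the other 3. Of 270 sets tested 12 stood out, and chance gives about 1 in 20. In dry HF animal 2 stood apart for NUSAP1 at 0.699 (others 0.17 to 0.24), CCNB1 at 0.396 (others 0.13 to 0.17) and AURKB at -0.179 (others 0.01 to 0.05). In lactating HF animal 3 stood apart for CDC20 at 0.38 (others -0.08 to -0.02). In lactating PR animal 3 stood apart for CDK1 at 0.412 (others -0.13 to -0.05), KIF4A at 0.189 (others -0.27 to -0.23) and SPAG5 at 0.103 (others -0.48 to -0.39). PR animal 1 stood apart for KIF2C in both states, at -1.16 in the dry period, on the bright array (others -0.22 to -0.10), and at 0.151 at peak lactation (others -0.28 to -0.22). CDK1 in dry PR animal 4 was at -0.329 (others 0.00 to 0.04). In deer, KIF11 of dry animal 1 was at 0.861 (others 0.49 to 0.51) and PTTG1 of lactating animal 3 at 0.0935 (others 0.56 to 0.60).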

How the results depend on the processing

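The 4 genes called between the breeds in the dry period kept their sign under the alternatives run, which did not include their single dimmer probes. Signs of the genes called between deer and cattle, and of those called in the other lists, were not followed. Of values not called, medians near 0 changed sign, as did PLK1, KNSTRN and CDCA3 in deer, KIF23 and NCAPD2 in HF and PRC1 between the breeds at peak lactation. These 6 did so in the reference channel alone. In addition PLK1 was -0.04 with scaling and KIF23 0.03 in Cy5 alone. NCAPD2 was -0.03 with slide position in the model and -0.01 without the arrays of HF animals 2 and 3. Between the states, no gene was called in HF or PR under any of them. In deer 1 gene was called with the animal as a random block, 25 with array weights (8780 of all probes) and 13 by an unadjusted Tukey comparison. Counts over all probes for the random block and the Tukey comparison are not given here. When 1 array was left out 0 to 2 genes were called (2 without lactation array 3, TPX2 and CDCA3), beside 0 to 91 of all probes. The replicate block, fixed or random, changed no other call of the 43 genes. The deer median of 0.28 was 0.64 with Feature Extraction ratios and 0.052 in the reference channel, and its excess over cattle was 0.57 and 0.0015, with 11 genes called under array weights, as were 5592 of 35431 probes. The HF median was 0.13 with slide position in the model. Within slides it was 0.05, -0.24, 0.29 and -0.18, which are the same values as those of HF animals 1 to 4. The PR median was 0.18 in the Cy5 channel alone and -0.15, -0.083 and 0.22 within slides. HF minus PR of the state differences was -0.20 with median centring and -0.22 in Cy5 alone.

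For HF minus PR in the dry period, the 4 calls became 15 with median centring and 18 with array weights. They became 2 with Feature Extraction ratios or the mean of all probes. They became 0 in either channel alone, with the slide as a fixed block, without HF animals 2 and 3, and with only the compared groups in the fit. Leaving out 1 array gave 0 to 6. The median of 0.26 was 0.44, 0.39, 0.42 and 0.14 with Feature Extraction ratios, median centring, Cy5 alone and all probes. Median centring moved the median of all probes to 0.15 in this contrast; probes called over the whole array were 899 higher and 137 lower, 5694 and 700 with median centring, 3039 and 2243 with array weights, and 1 to 4391 in all when 1 array was left out. At peak lactation 2 genes were called with scaling, with array weights or by Tukey, beside 1903, 1017 and 973 of 32949 probes, and the median was 0.31 with Feature Extraction ratios and 0.029 in the reference channel.

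Deer minus cattle called 8 genes with scaling and 0 in the reference channel in the dry period, and 0 in the reference channel at peak lactation. Calls over all probes changed as well. Apart from omissions of 1 array, the alternatives called 789 to 23310 probes in the dry period and 741 to 22385 at peak lactation. Counts of all probes for scaling and for the reference channel by themselves are not given here. The medians were 0.32 and 0.81 with Feature Extraction ratios and 0.25 and 0.44 with median centring; at peak lactation 0.35 in Cy5 alone and 0.085 in the reference channel. Breed contrasts could not be fitted with a fixed animal block, nor deer against cattle with a fixed slide block. The number of arrays, 4 in each group, and the low spike-in correlation on 5 of them limit the precision, and RACGAP1 was above background on 15 of the 24 arrays.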
